A study of Mus musculus with 9 samples.

Results

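Interferon-stimulated genes and genes of cytosolic RNA sensing were followed in a mouse melanoma line in which Decr2, which encodes a peroxisomal enzyme of unsaturated fat breakdown, had been knocked down. The members were 47 genes chosen by name, among them sensors, transcription factors and antiviral effectors, and 37 of them were found among the 10762 genes of the deposited table. The other 10 (Dhx58, Ddx60, Irf7, Usp18, Trim25, Oas1a, Oasl1, Isg20, Ifi44 and Sp110) were not in the table and were not analysed here. Decr2 shRNA1 cells and Decr2 shRNA2 cells carried a lentiviral hairpin against Decr2, and Control shRNA cells carried the hairpin SHC002. All 3 groups were stable puromycin-selected lines of B16.SIY, a C57BL/6 melanoma line whose model antigen SIY is fused to dsRED, and no untransduced cells were in the series, so every group shared the vector and the selection. Each group had 3 libraries, numbered 0, 1 and 2 in the titles, and no label tells whether these were separate cultures. The p-values below therefore measure the spread between libraries, which may be technical.

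Cells detect foreign or misplaced RNA with helicases such as MDA5 and RIG-I, which signal through the mitochondrial adaptor MAVS to transcription factors of the IRF family and induce type I interferon. Interferon then acts through its receptor, the kinases JAK1 and TYK2 and a complex that includes STAT2 and IRF9 on a DNA motif, the interferon-stimulated response element (ISRE). The genes so induced include the sensors and transcription factors themselves as well as effectors that bind, cut or modify RNA and proteins. Melanoma cells can run parts of this program without infection.

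Of the 12 members that were higher with each Decr2 hairpin in the test below, 9 had a RefSeq promoter (250 bases before the start of the gene and 50 from it on, assembly GRCm38.p6), and 5 of these held the core of the ISRE, which is GAAA, any 2 bases (NN) and GAAA again, on either strand. They are shown because the ISRE is the motif named above on which the interferon complex acts. Capitals mark the core on either strand, with overlapping matches run together, and each stretch reads 5′ to 3′ on the strand of the gene. The window of Ifih1 is 30 bases, since its match begins 32 bases past the first base of the transcript, and the other windows are 80 bases upstream of the start.
Ifih1 (chr2:62646206-62646235, minus strand): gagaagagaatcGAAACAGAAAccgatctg
Ifit1 (chr19:34640750-34640829, plus strand): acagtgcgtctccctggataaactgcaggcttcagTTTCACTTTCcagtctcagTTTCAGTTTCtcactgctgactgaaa
Isg15 (chr4:156200852-156200931, minus strand): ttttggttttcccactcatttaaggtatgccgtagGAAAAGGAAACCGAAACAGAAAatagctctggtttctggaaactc
Rsad2 (chr12:26456528-26456607, minus strand): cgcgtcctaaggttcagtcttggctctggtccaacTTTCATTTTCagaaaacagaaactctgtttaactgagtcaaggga
Ifit3 (chr19:34583338-34583417, plus strand): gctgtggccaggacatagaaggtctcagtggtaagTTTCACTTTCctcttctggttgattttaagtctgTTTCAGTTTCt

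Of all 27025 genes with such a promoter 3.99% held this core, against 10 of the 30 members with a promoter (33.3%). Besides the genes shown these were Ddx58, Trim21, Bst2, Shisa5 and Stat2, which were not called with both hairpins. The Isg15 stretch held 3 overlapping matches, and those of Ifit1 and Ifit3 held 2 each. The gamma-activated site TTCNNNGAA was present in 9.55% of all promoters, in 6 of 30 members (Adar, Bst2, Shisa5, Irf1, Ifi35 and Ifit2) and in 0 of the 9 called with both hairpins. A match describes letters in a window and is not evidence of binding. Tmem173, Parp9, Parp10, Parp14, Ifi27, Rtp4 and Tor3a had no matched promoter.

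The deposited values are log2 values per library, scaled to a common total, and are not known to be divided by gene length. Differences are therefore read within a gene. Mean values are used across genes only to set apart those with low values and to sum markers, and gene length may enter both. The read depth is unknown, so precision rests on the libraries. Decr2 itself was lower in every hairpin library: its log2 values were 2.87, 2.51 and 3.18 with shRNA1 and 0.84, 1.18 and 1.55 with shRNA2, against 3.96, 4.10 and 3.71 with the control hairpin. That is 47.6% and 15.0% of the control level with shRNA1 and shRNA2. All 9 melanocyte markers looked for (Pmel, Tyr, Tyrp1, Dct, Mlana, Mitf, Sox10, Gpnmb and Slc45a2) were in the table. Of 26 markers of leukocytes, myeloid or plasmacytoid cells, fibroblasts and endothelium, 4 were (Lck, Col1a1, Pdgfrb and Plvap), and none of the 9 myeloid and plasmacytoid ones. In such bulk libraries more cells expressing a gene and more RNA per cell cannot be told apart.

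None of the 13 markers in the table passed limma in any comparison with control, but several did in the alternative fits named below. There melanocyte markers fell, opposite to most members, and Col1a1 and Plvap rose. The part of the markers in the results on the members was not tested. The average log2 fold change was below 0 for all 9 melanocyte markers. Both hairpin libraries were below the control of the same number for 1 of 9 in replicate 0, 8 in replicate 1 and 9 in replicate 2. Gpnmb, a melanosome glycoprotein, had values of 12.24, 11.12 and 11.14 with shRNA1 and 12.46, 11.29 and 11.30 with shRNA2, against 12.36, 12.13 and 12.12 with the control hairpin, so its groups overlapped through replicate 0 alone. Gpnmb and Sox10 fell in the average with the replicate block, by 0.61 and 0.24 (limma adjusted p = 0.0196 and 0.0449), and without the libraries numbered 0 all 9 melanocyte markers fell, where 20.5% of all genes did. The summed melanocyte level ran from 13.9 to 14.5 with shRNA1 and from 13.9 to 14.8 with shRNA2, against 14.4 to 14.6 with the control hairpin (log2 of the sum).

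Col1a1, a collagen chain of fibroblasts, had values of 1.59, 1.23 and 0.97 with shRNA1 and 1.31, 0.42 and 0.56 with shRNA2, against 1.14, -1.13 and -1.33 with the control hairpin. Each hairpin library exceeded the control that carries its number, and the average difference of 1.45 did not pass (limma adjusted p = 0.0881). It passed in the average with the replicate block (adjusted p = 0.0175) and without the libraries numbered 0 (2.02, adjusted p = 0.00126). The endothelial marker Plvap rose with shRNA2 without those libraries (0.65, limma adjusted p = 0.0217). The summed level of Col1a1, Pdgfrb and Plvap ran from 3.94 to 4.27 with shRNA1 and from 3.42 to 3.93 with shRNA2, against 3.74 to 3.90 with the control hairpin. Lck, the only leukocyte marker in the table, ran from 1.14 to 1.80 with shRNA1 and from 1.45 to 1.79 with shRNA2, against 1.14 to 1.75 with the control hairpin.

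Members were tested with limma over all genes, with a gene called at an adjusted p under 0.05. With shRNA1, 13 of 37 members rose, 0 fell and 24 did not pass, where 6.92% of all genes rose and 5.49% fell. With shRNA2, 14 rose, 1 fell and 22 did not pass, where 7.27% of all genes rose and 5.67% fell. Both hairpins called the same 12 members higher (32.4%), where 4.54% of all genes were called higher and 3.01% lower with both. These comparisons share the control libraries. The 12 were Ifih1, Isg15, Dtx3l, Parp12, Parp14, Ifit1, Ifit3, Rsad2, Mov10, Nmi, Rtp4 and Tor3a. The median member was 0.59 higher with shRNA1 and 0.53 higher with shRNA2 on the log2 scale, where the median of all genes was 0.00 in each comparison. In the average of both hairpins 17 members rose (the 12 and Irf1, Herc6, Parp10, Ifi35 and Ifi27) and 0 fell, where 9.69% of all genes rose, 7.89% fell and 17.6% passed in either direction.

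Without reference to a test, 19 of 37 members (51.4%) had all 6 hairpin libraries above all 3 control libraries, where 12.0% of all genes did, and 0 had them all below. Compared with the control of the same number, 26 members (70.3%) were higher in all 6 hairpin libraries, where 20.3% of all genes were. Many members had low values, and low genes as a class stood higher in the hairpin lines. Of 37 members 21 lay in the lowest 25% of genes by mean value, and the median gene of that range was 0.15 higher in the average, against a median of 0.67 for those 21 members. In that range 10 of 21 members were called higher with both hairpins, where 7.36% of its genes were, and 12 of 21 in the average, where 15.4% were. All 6 hairpin libraries lay above the controls in 15 of these 21, where this held for 18.9% of the genes in the range. Among the other genes 2 of 16 members were (Parp12 and Mov10), where 3.61% were, and 5 of 16 in the average, where 7.78% were. All 6 hairpin libraries lay above the controls in 4 of these 16, where this held for 9.73% of the other genes. The median of these 16 members was 0.27, against -0.03 for all of the other genes.

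**Figure D1:**
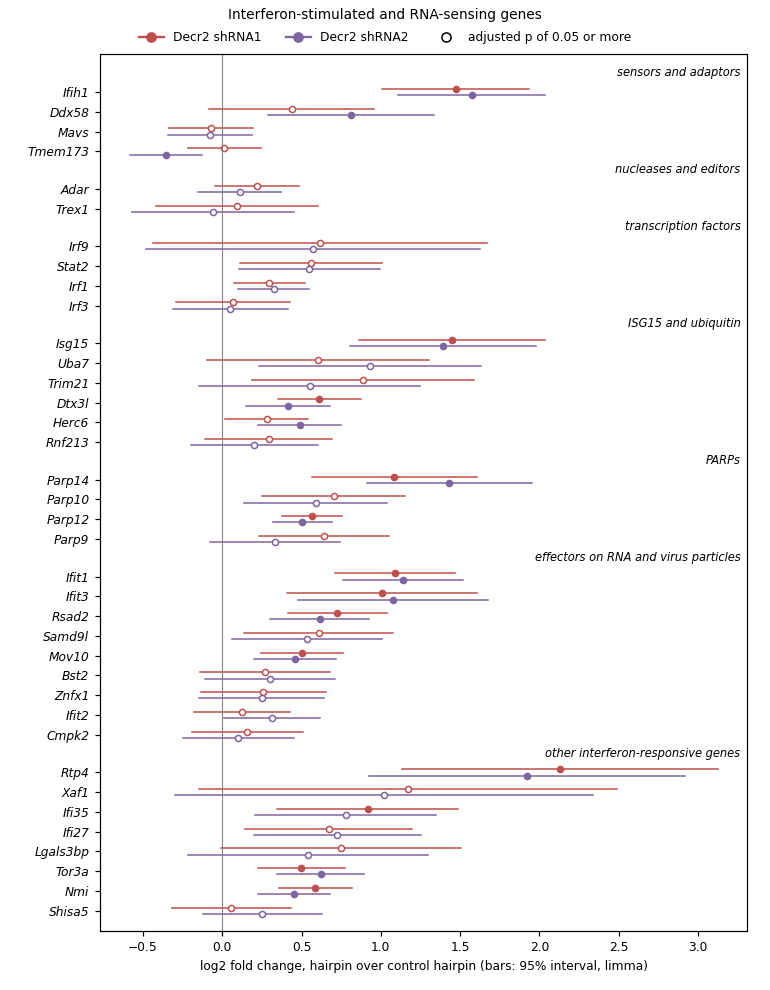
Log2 fold change of each member with shRNA1 and shRNA2 over the control hairpin, grouped by role, with 95% intervals from limma; filled points have an adjusted p under 0.05 and open points do not. Points of 36 members with shRNA1 and 34 with shRNA2 lie above 0, and those of Mavs lie below it with each hairpin. Of all 10762 genes, 5408 with shRNA1 and 5447 with shRNA2 had a log2 fold change above 0.

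The count moved when single libraries were left out and when the fit took account of the library number. With the replicate block, a term for the library number, 19 members rose with both hairpins, 21 with shRNA1, 24 with shRNA2 and 27 in the average, where 9.17%, 13.4%, 13.4% and 16.2% of all genes did. The 19 held all 12 and added Stat2, Parp10, Samd9l, Ifi35, Ifi27, Xaf1 and Lgals3bp. Without control replicate 1, members rose in numbers of 7 with shRNA1, 6 with shRNA2, 5 with both and 9 in the average. Without control replicate 2 these numbers were 4, 5, 4 and 11. Without shRNA1 replicate 1, 8 rose with shRNA1 and 7 with both. Without shRNA2 replicate 0, 1 or 2, those that rose with shRNA2 numbered 8, 7 and 6, and those with both 7, 6 and 6. The share of all genes called was not counted in the fits that left out a library. The lower counts are therefore not read as particular to the members. Ifih1, Parp12 and Ifit1 were called with both hairpins in all 9 fits that left out a library.

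Among the sensors and adaptors, Ifih1 rose with both hairpins. Ifih1 (ENSMUSG00000026896, chromosome 2, 62595798 to 62646255, minus strand, GRCm38) encodes MDA5, which recognises long double-stranded RNA. Its log2 values were 3.69, 3.99 and 3.53 with shRNA1 and 3.84, 3.83 and 3.83 with shRNA2, against 2.12, 2.74 and 1.92 with the control hairpin. The lowest hairpin library stood 0.79 above the highest control, and the 3 shRNA2 libraries were nearly equal. The means differed 2.77-fold with shRNA1 (limma log2 fold change 1.47, SE 0.21, adjusted p = 0.00457) and 2.97-fold with shRNA2 (1.57, SE 0.21, adjusted p = 0.00332).

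Ddx58, which encodes RIG-I, the sensor of short double-stranded RNA with a triphosphate end, had values of 3.22, 2.98 and 2.91 with shRNA1 and 3.72, 2.85 and 3.65 with shRNA2, against 2.72, 2.36 and 2.71 with the control hairpin. All 6 hairpin libraries were above the controls, but the gene passed with shRNA2 alone (limma log2 fold change 0.81, SE 0.23, adjusted p = 0.0495) and not with shRNA1 (0.44, adjusted p = 0.247). The call with shRNA2 was lost in 7 of the 9 fits that left out a library, namely every one except those without shRNA1 replicate 0 and shRNA2 replicate 1, with adjusted p-values from 0.069 to 0.171. The log2 difference of shRNA2 from shRNA1 was 0.37 (95% interval -0.15 to 0.89), which did not pass (limma adjusted p over 0.05).

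The adaptors moved less. Mavs, the mitochondrial adaptor of MDA5 and RIG-I, was 0.07 lower with shRNA1 and 0.08 lower with shRNA2 and did not pass. Tmem173, which encodes STING, the adaptor of cytosolic DNA sensing, had values of 4.84, 4.58 and 4.69 with shRNA2, against 5.22, 4.96 and 5.04 with shRNA1 and 4.98, 5.14 and 5.05 with the control hairpin. It fell by 0.36 with shRNA2 (SE 0.10, limma adjusted p = 0.0498), the only member called lower, and its log2 fold change with shRNA1 was 0.01. That call was lost in 7 of 9 fits that left out a library (adjusted p 0.0585 to 0.172); it held without shRNA1 replicate 0 or shRNA2 replicate 0. The direct comparison of shRNA2 with shRNA1 gave -0.37 for Tmem173 (95% interval -0.60 to -0.14), which missed the threshold over all genes (limma adjusted p = 0.207).

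The nucleic acid enzymes Adar, which edits adenosine in double-stranded RNA, and Trex1, a DNA exonuclease, did not pass with either hairpin. Adar had values of 6.03, 5.98 and 5.76 with shRNA1 and 5.98, 5.67 and 5.79 with shRNA2, against 5.87, 5.67 and 5.57 with the control hairpin, and the groups overlapped. The log2 fold changes of Trex1 were 0.09 and -0.06 with shRNA1 and shRNA2, and the gene overlaps Atrip on the same strand.

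Of the 4 measured transcription factors, Irf1 rose in the average of both hairpins and none passed with a single hairpin. Irf1, a factor induced by interferon that itself binds the ISRE, had values of 4.32, 4.44 and 4.31 with shRNA1 and 4.33, 4.41 and 4.41 with shRNA2, against 4.19, 4.09 and 3.89 with the control hairpin. All 6 hairpin libraries lay above the controls, and the average difference was 0.31 (SE 0.09, limma adjusted p = 0.0366). It was lost in 6 fits that left out a library, those without replicate 1 or replicate 2 of any group (adjusted p 0.0581 to 0.17). In the replicate block Irf1 also passed with shRNA2 (limma adjusted p = 0.0419).

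Stat2 and Irf9 encode parts of the complex that binds the ISRE. Stat2 had values of 3.62, 3.50 and 3.55 with shRNA1 and 3.76, 3.25 and 3.64 with shRNA2, against 3.44, 2.81 and 2.75 with the control hairpin, and 5 of 6 hairpin libraries were above all controls. It missed the threshold in the average (0.55, SE 0.17, limma adjusted p = 0.0543) and passed in the replicate block with each hairpin (adjusted p = 0.0261 and 0.0289). Irf9 had values of 2.56, 1.43 and 1.37 with shRNA1 and 2.50, 1.07 and 1.66 with shRNA2, against 1.88, 0.85 and 0.77 with the control hairpin. Here the replicate 0 libraries stood apart from the others of their group by 1.07 to 1.16, more than the 0.60 between hairpins and control, and Irf9, which overlaps Rnf31 on the same strand, passed in the average with the block (limma adjusted p = 0.034). Irf3, the factor activated by MAVS and STING signalling, had log2 fold changes of 0.07 and 0.05 and did not pass.

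The ISG15 system attaches a ubiquitin-like protein to other proteins. Isg15 (ENSMUSG00000035692, chromosome 4, 156199424 to 156200818, minus strand), the modifier itself, had values of 2.52, 2.16 and 2.03 with shRNA1 and 2.28, 2.30 and 1.96 with shRNA2, against 1.29, 0.39 and 0.69 with the control hairpin. The groups did not overlap, and Isg15 rose 2.73-fold with shRNA1 and 2.62-fold with shRNA2 (limma log2 fold changes 1.45 and 1.39, SE 0.26 each, adjusted p = 0.011 and 0.012). Its call with both hairpins was lost without control replicate 2 (larger adjusted p = 0.052) or shRNA2 replicate 1 (0.0537).

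Uba7, the enzyme that activates ISG15, had values of 3.55, 2.26 and 2.32 with shRNA1 and 3.29, 2.97 and 2.86 with shRNA2, against 2.17, 2.12 and 2.02 with the control hairpin. Each hairpin library was above the controls, yet with shRNA1 the replicate 0 library carried most of the difference, and the gene did not pass with either hairpin (limma adjusted p = 0.236 and 0.0809). Herc6, an ISG15 ligase in the mouse, rose with shRNA2 by 0.49 (SE 0.12, limma adjusted p = 0.0278) and had a log2 fold change of 0.28 with shRNA1, which did not pass. The shRNA2 call was lost without control replicate 0 or 1 or shRNA2 replicate 1 or 2 (adjusted p 0.0661 to 0.108). Its average call (0.38, limma adjusted p = 0.0304) was lost without these libraries or shRNA1 replicate 1 or 2 (0.0555 to 0.134). The direct difference for Herc6 was 0.21 (95% interval -0.05 to 0.47).

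Dtx3l is a ubiquitin ligase that works with PARP9, and the starts of these genes overlap on opposite strands of chromosome 16. Dtx3l had values of 4.01, 3.79 and 3.92 with shRNA1 and 3.80, 3.57 and 3.75 with shRNA2, against 3.44, 3.16 and 3.28 with the control hairpin, without overlap. It rose by 0.61 (SE 0.12, limma adjusted p = 0.0134) and 0.41 (SE 0.12, adjusted p = 0.049). That the call covers both hairpins depended on most libraries: it held only without control replicate 0 or shRNA1 replicate 0 and had larger adjusted p-values of 0.0615 to 0.171 in the other 7 fits. Trim21, a ligase that recognises antibody-coated particles in the cytosol, was 0.89 and 0.55 higher, and Rnf213, a very large ligase, was 0.29 and 0.20 higher; neither passed. In the replicate block Uba7 passed with shRNA2 and Trim21 with shRNA1 (limma adjusted p = 0.021 and 0.0265).

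All 4 PARPs among the members, enzymes of ADP-ribosylation, had positive log2 fold changes with each hairpin, and Parp12 and Parp14 rose with both. Outside the member list, Parp11 had log2 fold changes of -0.06 with shRNA1 and 0.19 with shRNA2 and did not pass. Parp12 (ENSMUSG00000038507, chromosome 6, 39086410 to 39118349, minus strand) had values of 5.07, 4.95 and 4.91 with shRNA1 and 4.97, 4.92 and 4.86 with shRNA2, against 4.49, 4.33 and 4.41 with the control hairpin. The spread within a group was small (SD 0.08, 0.06 and 0.08), and the gene rose by 0.57 and 0.51 (SE 0.08 each, limma adjusted p = 0.00497 and 0.00738).

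Parp14 (ENSMUSG00000034422, chromosome 16, 35832874 to 35871544, minus strand) had values of 2.50, 2.29 and 2.21 with shRNA1 and 3.07, 2.24 and 2.72 with shRNA2, against 1.49, 1.03 and 1.22 with the control hairpin. It rose by 1.08 and 1.43 (SE 0.23 each, limma adjusted p = 0.0196 and 0.00684), a 2.12-fold and 2.70-fold difference, and shRNA2 was not called different from shRNA1 (0.35, 95% interval -0.17 to 0.87). The call with both hairpins was lost without control replicate 1 (larger adjusted p = 0.0808), control replicate 2 (0.0729) or shRNA1 replicate 1 (0.05). Parp10, a mono-ADP-ribosyltransferase, was 0.70 and 0.59 higher and rose in the average (0.65, SE 0.17, limma adjusted p = 0.033). The average call of Parp10 was lost without control replicate 1 or 2, shRNA1 replicate 2 or shRNA2 replicate 0 or 1 (adjusted p 0.0518 to 0.148), and Plec overlaps the gene on the same strand. Parp9 was 0.64 and 0.33 higher and did not pass (limma adjusted p = 0.0503 and 0.265), and it passed with shRNA1 in the replicate block (adjusted p = 0.0174).

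**Figure D2:**
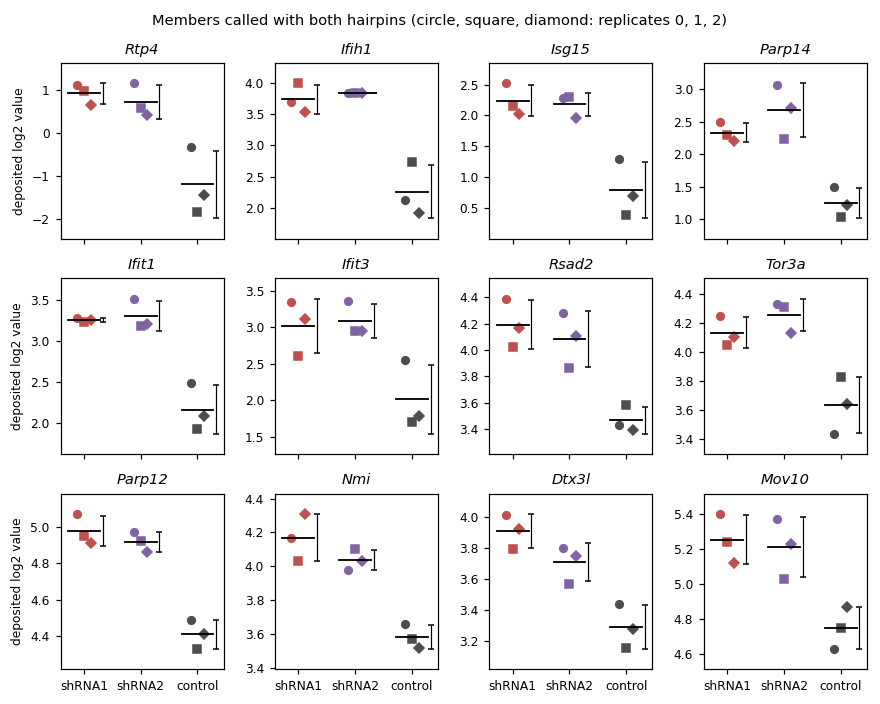
Deposited log2 values of the 12 members called with both hairpins in shRNA1, shRNA2 and control libraries, each panel on its own axis that does not start at 0; circles, squares and diamonds are replicates 0, 1 and 2, lines are group means and bars are SD (n = 3). In every panel the 6 hairpin libraries lie above the 3 control libraries.

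Among the effectors that act on RNA or virus particles, Ifit1, Ifit3, Rsad2 and Mov10 rose with both hairpins and the other 5 did not pass with either. Ifit1 (ENSMUSG00000034459, chromosome 19, 34640871 to 34650009, plus strand), which binds capped RNA lacking ribose methylation, had values of 3.28, 3.23 and 3.26 with shRNA1 and 3.52, 3.19 and 3.21 with shRNA2, against 2.49, 1.92 and 2.08 with the control hairpin. It rose 2.13-fold and 2.20-fold (limma log2 fold changes 1.09 and 1.14, SE 0.17 each, adjusted p = 0.006 and 0.00507). Ifit3, a partner of IFIT1, had values of 3.34, 2.61 and 3.11 with shRNA1 and 3.36, 2.95 and 2.95 with shRNA2, against 2.55, 1.70 and 1.78 with the control hairpin. The lowest shRNA1 library was only 0.06 above the highest control, and the rise was 1.01 and 1.08 (SE 0.27 each, limma adjusted p = 0.04 and 0.0318). It was lost in 7 fits (larger adjusted p 0.0769 to 0.147) and held without control replicate 0 or shRNA1 replicate 1; reads of Ifit3 may also be shared with its close copy Ifit3b.

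Ifit2, the neighbour of Ifit3 at a distance of 7111 bases, had values of 6.17, 6.50 and 6.72 with shRNA1 and 6.50, 6.72 and 6.75 with shRNA2, against 6.24, 6.39 and 6.40 with the control hairpin. Its groups overlapped and it did not pass (limma log2 fold changes 0.12 and 0.31, adjusted p = 0.582 and 0.159); in the replicate block it passed with shRNA2 (adjusted p = 0.0256). Within each library the log2 value of Ifit1 minus that of Ifit2 was -2.89, -3.27 and -3.47 with shRNA1 and -2.98, -3.53 and -3.54 with shRNA2, against -3.75, -4.47 and -4.32 with the control hairpin. These differences did not overlap between the hairpin and control libraries; they were singled out after the values were seen and were not tested.

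Rsad2, which encodes viperin, the maker of a chain-terminating nucleotide, lies beside Cmpk2, a mitochondrial nucleotide kinase gene, 12751 bases away on the opposite strand. Rsad2 had values of 4.39, 4.02 and 4.17 with shRNA1 and 4.28, 3.86 and 4.11 with shRNA2, against 3.43, 3.58 and 3.39 with the control hairpin, without overlap, and rose by 0.72 and 0.62 (SE 0.14 each, limma adjusted p = 0.0134 and 0.0228). Its call with both hairpins was lost without any 1 of the control replicates or shRNA2 replicates 0 or 2 (larger adjusted p 0.0559 to 0.0906). Cmpk2 had values of 3.25, 2.91 and 2.99 with shRNA1 and 3.29, 2.83 and 2.85 with shRNA2, against 2.91, 2.90 and 2.87 with the control hairpin, which overlapped, and it did not pass. Rsad2 minus Cmpk2 ran from 0.99 to 1.25 in the hairpin libraries, against 0.52 to 0.68 in the control libraries, which again was seen afterwards and not tested.

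Mov10, an RNA helicase that restrains retroviruses and retrotransposons, had values of 5.40, 5.24 and 5.12 with shRNA1 and 5.37, 5.03 and 5.23 with shRNA2, against 4.63, 4.75 and 4.87 with the control hairpin. The groups did not overlap, and it rose by 0.50 and 0.46 (SE 0.11 each, limma adjusted p = 0.0245 and 0.0323). The call was lost without any 1 of the control replicates, shRNA1 replicate 1 or shRNA2 replicates 0 or 2 (larger adjusted p 0.0601 to 0.104). Samd9l, a growth and virus restriction factor, was 0.61 and 0.53 higher, Bst2, which tethers virus particles to the membrane, 0.27 and 0.30 higher, and Znfx1, a helicase of antiviral RNA sensing, 0.26 and 0.25 higher. These 3 did not pass; Samd9l passed with each hairpin in the replicate block (limma adjusted p = 0.00704 and 0.0119).

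Of the remaining 8 members, Rtp4, Nmi and Tor3a rose with both hairpins. Rtp4 (ENSMUSG00000033355, chromosome 16, 23520291 to 23614222, plus strand), a receptor-transporting protein that also restricts viruses, had the largest fold change of the 37. The mean value of Rtp4, 0.15, was also the lowest of the 37, and with unknown read depth the size of its fold change is uncertain. Its values were 1.12, 0.99 and 0.66 with shRNA1 and 1.16, 0.59 and 0.41 with shRNA2, against -0.32, -1.84 and -1.45 with the control hairpin. The groups did not overlap, and it rose 4.37-fold and 3.79-fold (limma log2 fold changes 2.13 and 1.92, SE 0.44 each, adjusted p = 0.0179 and 0.0244). It was lost without control replicate 1 or 2, shRNA1 replicate 1 or any 1 of the shRNA2 libraries (larger adjusted p 0.0547 to 0.0872). Masp1 overlaps the gene on the opposite strand, and the strand setting of the counting is not known.

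Nmi, a partner of STAT proteins and of IFI35, had values of 4.17, 4.03 and 4.31 with shRNA1 and 3.98, 4.10 and 4.03 with shRNA2, against 3.66, 3.57 and 3.52 with the control hairpin, without overlap. It rose by 0.59 and 0.45 (SE 0.10 each, limma adjusted p = 0.0095 and 0.0228), and the call was lost without control replicates 1 or 2 or shRNA2 replicates 1 or 2 (larger adjusted p 0.0756 to 0.0925). Tor3a, a torsin-family ATPase of the endoplasmic reticulum, had values of 4.25, 4.05 and 4.10 with shRNA1 and 4.33, 4.31 and 4.13 with shRNA2, against 3.44, 3.83 and 3.64 with the control hairpin, without overlap. It rose by 0.50 and 0.62 (SE 0.12 each, limma adjusted p = 0.0308 and 0.0141) and was lost without control replicate 0 or 2, any 1 of the shRNA1 libraries or shRNA2 replicate 1 (larger adjusted p 0.0541 to 0.101).

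Ifi35, the partner of NMI, had values of 3.59, 2.81 and 2.86 with shRNA1 and 3.16, 2.96 and 2.71 with shRNA2, against 2.57, 1.95 and 1.98 with the control hairpin. It rose with shRNA1 by 0.92 (SE 0.25, limma adjusted p = 0.0454) and was 0.78 higher with shRNA2, which did not pass (adjusted p = 0.0749). The shRNA1 call was lost in 8 of 9 fits, every one except that without control replicate 0 (adjusted p 0.0511 to 0.159). The average call of Ifi35 (0.85, limma adjusted p = 0.0284) was lost without control replicate 1 or 2 or shRNA2 replicate 0 or 1 (0.0502 to 0.132). Ifi27, an interferon-induced membrane protein with close paralogs, was 0.67 and 0.73 higher and rose in the average (0.70, SE 0.20, limma adjusted p = 0.0432). Its average call was lost without control replicate 1 or 2 or shRNA2 replicate 0 or 1 (adjusted p 0.0637 to 0.167).

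Xaf1, a promoter of apoptosis, and Lgals3bp, a secreted glycoprotein, did not pass although their fold changes were large. Xaf1 had values of 3.14, 2.31 and 1.30 with shRNA1 and 3.12, 1.55 and 1.61 with shRNA2, against 1.97, 0.57 and 0.70 with the control hairpin (log2 fold changes 1.17 and 1.02, SE 0.59 each, limma adjusted p = 0.225 and 0.285). Lgals3bp had values of 5.32, 4.42 and 4.28 with shRNA1 and 5.04, 4.30 and 4.07 with shRNA2, against 4.40, 3.79 and 3.59 with the control hairpin. In each gene the control replicate 0 overlapped hairpin libraries of other numbers, while every hairpin library was above the control of its own number. In the replicate block both passed with each hairpin (limma adjusted p = 0.0105 and 0.0182 for Xaf1, 0.00124 and 0.00434 for Lgals3bp). Shisa5, a membrane protein induced by p53 and interferon, was 0.06 and 0.25 higher and did not pass; on the opposite strand, 155 bases separate it from Trex1.

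**Figure D3:**
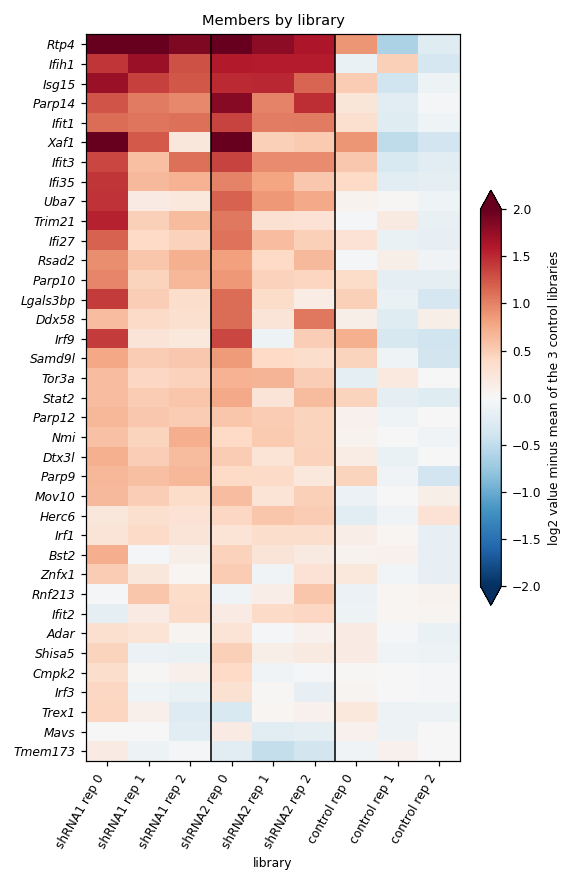
Deposited log2 value of each member in each library minus the mean of the 3 control libraries, with members ordered by the average fold change; red is above and blue below the control mean, and colours are limited at 2 in either direction. The hairpin columns are red over most rows, and replicate 0 is the deepest red of its group in many of them, the control group included.

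The replicate 0 libraries carried higher values of these genes in all groups. Replicate 0 was the highest library of its group in 31 of 37 members with shRNA1, 30 with shRNA2 and 27 with the control hairpin, where 45.3%, 41.0% and 41.1% of all genes had it highest. In 23 members (62.2%) it was the highest in all 3 groups, where 19.6% of all genes showed this. The median member was 0.28, 0.33 and 0.22 higher in replicate 0 than in the mean of the other libraries with shRNA1, shRNA2 and the control hairpin. Replicate 0 was also the highest library for 8 of 9 melanocyte markers with shRNA1 and 9 with shRNA2, against 7 with the control hairpin, where Mlana was lowest in it and Pmel was level with another library to 2 decimals. What sets these libraries apart is not given in the labels. Without the libraries numbered 0, 22 members rose with shRNA1, 26 with shRNA2 and 21 with both, where 12.6% of all genes rose with both. With all libraries 4.54% of all genes rose with both, so calls became more frequent across the table as well. The shares of all genes for the single hairpins were not counted in this fit. Within each number the hairpin difference was similar: the median member was 0.58, 0.51 and 0.59 above the control of the same number with shRNA1 replicates 0, 1 and 2, and 0.50, 0.45 and 0.51 above it with shRNA2 replicates 0, 1 and 2.

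**Figure D4:**
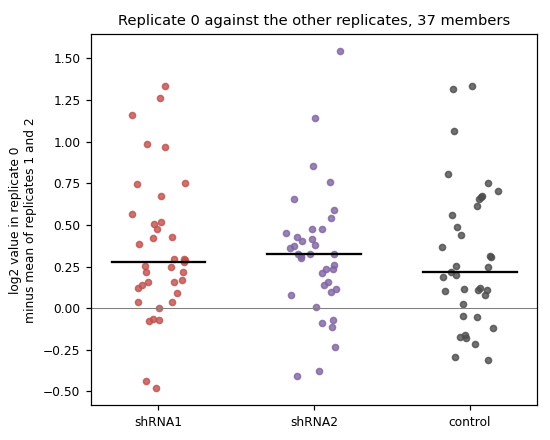
Log2 value in replicate 0 minus the mean of replicates 1 and 2 for each of the 37 members in shRNA1, shRNA2 and control libraries; points are members, spread sideways for visibility, and lines are medians. The medians are 0.28, 0.33 and 0.22, all above 0.

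The hairpins left different amounts of Decr2, and a direct comparison asked whether the members differed between the lines. Of 37 members 0 passed for shRNA2 against shRNA1 (limma), where 0.455% of all genes passed. An unadjusted limma p under 0.05 was found for 1 member, Tmem173, where 1081 of all 10762 genes had one. Decr2 itself was 1.66 lower with shRNA2 than with shRNA1 in log2 (limma SE 0.23, adjusted p = 0.0233). The median member differed by -0.04. The 95% intervals of the difference were -0.37 to 0.57 for Ifih1, -0.64 to 0.53 for Isg15, -0.33 to 0.43 for Ifit1, -0.25 to 0.12 for Parp12 and -1.20 to 0.79 for Rtp4. Differences inside these intervals were not resolved with 3 libraries a group. Without the replicate 0 libraries, 3 members passed: Uba7 was 0.62 and Shisa5 0.28 higher with shRNA2 than with shRNA1, and Tmem173 was 0.37 lower (limma adjusted p = 0.0355, 0.0446 and 0.0279). The share of all genes that passed in this fit was not counted, so these calls are not read as particular to the members.

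Pathway genes outside the member list gave the setting. Of 10 interferon ligand genes looked for (type I, type II and type III), 0 were in the table, so ligand expression was not analysed here. Of 43 other pathway genes that were measured, 9 rose, 2 fell and 32 did not pass in the average of both hairpins, where 9.69% of all genes rose and 7.89% fell; the median was 0.15. With the replicate block 15 rose, where 16.2% of all genes did. The risen genes were Ifnar2, Tyk2, Ikbke, Tank, Ifitm3, Ifi47, Irgm2, Trafd1 and Tap1, and the fallen ones Samhd1 and Lap3. Without control replicate 1, 4 rose and 0 fell, and without control replicate 2, 3 rose and 0 fell. The share of all genes called in these fits was not counted, so the lower counts are not read as particular to the pathway.

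Of the receptors and kinases, Tyk2, the kinase bound to the type I receptor, rose with both hairpins (5.42, 5.34 and 5.31 with shRNA1 and 5.41, 5.37 and 5.41 with shRNA2, against 4.97, 5.04 and 5.10 with the control hairpin; limma adjusted p = 0.0237 and 0.0153). It was lost with both in 7 of 9 fits, all but those without shRNA1 replicate 0 or shRNA2 replicate 0 (larger adjusted p 0.0523 to 0.0879). Ifnar2, a chain of the type I receptor, rose in the average by 0.33 (SE 0.09, limma adjusted p = 0.032). That call was lost without control replicate 1 or 2 or shRNA2 replicate 1 or 2 (adjusted p 0.0649 to 0.146). Jak1, Jak2, Ifnar1, Ifngr1, Ifngr2, Il10rb and Ifnlr1 did not pass with either hairpin.

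In the sensing pathway Ikbke, a kinase that activates IRF3 and IRF7, rose by 0.82 and 0.76 (SE 0.21 each, limma adjusted p = 0.0352 and 0.0447). Its call with both hairpins held in 2 of the 9 fits only, those without control replicate 0 or shRNA1 replicate 2 (larger adjusted p 0.0669 to 0.152 elsewhere). Tank, an adaptor of TBK1, rose in the average by 0.30, while Samhd1, a nucleotide hydrolase, fell by 0.35 (limma adjusted p = 0.0174 and 0.0181). Tbk1, Traf3, Traf6, Tlr3, Ticam1, Zc3hav1 and the kinase gene Eif2ak2 did not pass. Both average calls were lost without control replicate 1 or 2, and that of Tank also without control replicate 0 (adjusted p 0.0547 to 0.101 over these fits).

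Among 22 further interferon-stimulated genes, Ifitm3, which blocks virus entry, Ifi47, an interferon-induced GTPase, and Trafd1, a feedback inhibitor of innate signalling, rose with both hairpins. Ifitm3 had values of 5.59, 4.81 and 4.89 with shRNA1 and 5.14, 4.90 and 4.84 with shRNA2, against 4.32, 3.63 and 3.84 with the control hairpin, without overlap (log2 fold changes 1.17 and 1.03, SE 0.23 each, limma adjusted p = 0.0145 and 0.0221). The call of Ifitm3 with both hairpins was lost without control replicate 1 or 2 or any 1 of the shRNA2 libraries (larger adjusted p 0.0584 to 0.0902), that of Ifi47 in every fit except that without shRNA2 replicate 0 (0.0551 to 0.122), and that of Trafd1 without control replicate 1 or 2, shRNA1 replicate 1 or shRNA2 replicate 2 (0.0681 to 0.0909). The GTPase Irgm2 and the peptide transporter Tap1 rose in the average, by 1.57 and 1.02 (SE 0.38 and 0.24, limma adjusted p = 0.0228 and 0.0184). Irgm2 was lost without control replicate 1 (0.0674) or 2 (0.096) and Tap1 without control replicate 2 (0.0736). Lap3, a leucine aminopeptidase, fell by 0.35 (SE 0.09, limma adjusted p = 0.031), a call lost without control replicate 1 or 2, shRNA1 replicate 2 or shRNA2 replicate 0 or 2 (0.0532 to 0.15).

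**Figure D5:**
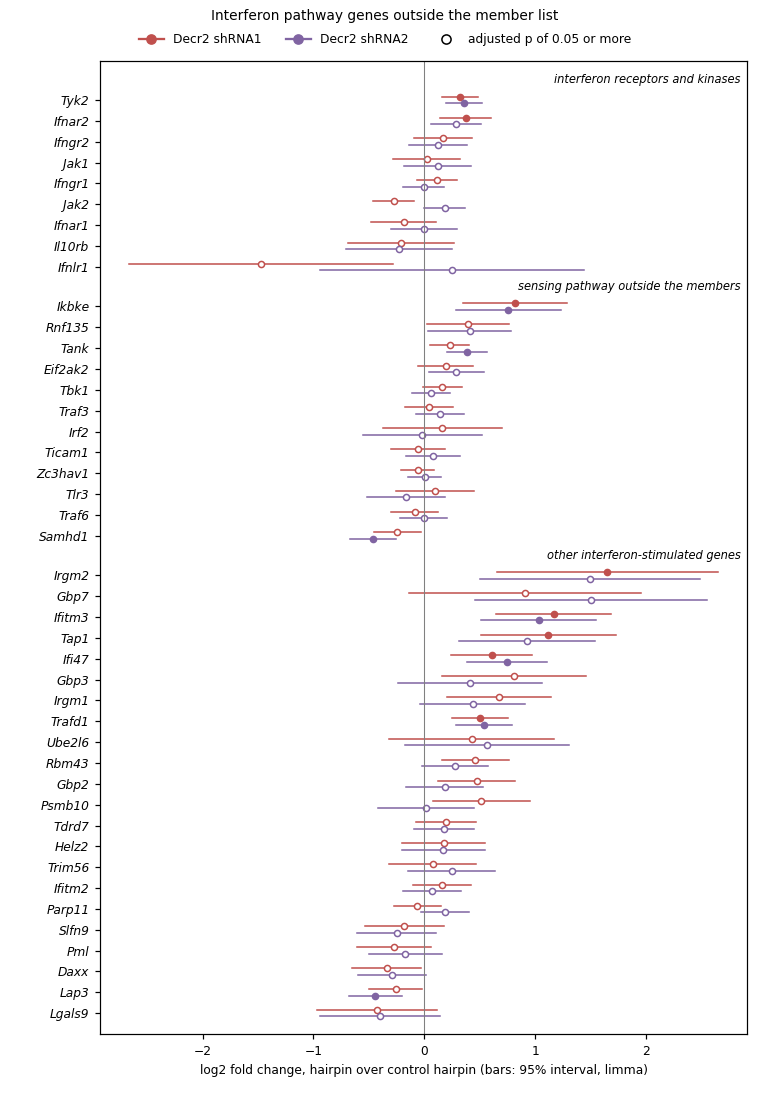
Log2 fold change of 43 interferon pathway genes outside the member list with shRNA1 and shRNA2 over the control hairpin, with 95% intervals from limma; filled points have an adjusted p under 0.05. Tyk2, Ikbke, Ifitm3, Ifi47 and Trafd1 are filled with both hairpins, and the fallen genes Samhd1 and Lap3 are filled with shRNA2.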

How the data were processed

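Messenger RNA of 9 libraries (3 per group) was read from 1 deposited table of 10762 genes. Its log2 values were made by the authors with kallisto, FastQC and limma, per the submitters' processing notes; the sources used here give no versions, genome build, annotation, strand setting or low-gene filter. Raised to the power of 2 they sum to 969465 to 1045849 per library. The authors' deposited table also holds p-values and a t score per gene, of which only adjusted p-values were counted: it called 13 members with shRNA1, 12 with shRNA2 and 11 with both, all 11 also called here. The share of all genes called there was not counted. Dtx3l, Ddx58 and Tmem173 with shRNA2 and Ifi35 with shRNA1 were called here but not there (authors' adjusted p = 0.0639, 0.0853, 0.0517 and 0.0582). Parp9 with shRNA1 was called there but not here (0.0422). The same libraries underlie both sets of calls, so their overlap is not independent support. The letter C and a number name the control columns. The hairpin of the other columns was read from the authors' headed comparisons, whose fold changes lay within 0.05 of the assigned column means in 99.95% (shRNA1) and 99.7% (shRNA2) of genes, against 26.57% and 26.31% for the exchanged assignment. An unnamed column with 19 values (1 in all) was not used.

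limma 3.58.1 in R 4.3.3 was run on the log2 values of all genes with group means and a variance prior that follows mean intensity, with Benjamini-Hochberg adjustment over all genes and calls at an adjusted p under 0.05, and checked on simulated data. No filter or pseudocount was added. Errors are SE or 95% intervals of this fit. Deviations of same-numbered libraries from their group means correlated positively in all 9 pairs (r from 0.126 to 0.644 across genes). Correlations between libraries of different numbers were not computed. Deviations within a group are tied through its mean, so a shift in the libraries numbered 0 alone could make the other pairs correlate. Whether the other numbers pair the libraries is therefore not shown. A fit with the replicate numbers as a block was run as an alternative. Symbols came from Ensembl identifiers (10759 matched, 3 kept the deposited name) and gene coordinates from GENCODE M21 (GRCm38), which may not be the authors' build. All members found are reported, with values in every library for those called with both hairpins, for the one with the lowest adjusted p of each role group and for others where the libraries disagree; those others were chosen after their values were seen. The members, gene lists and tests were chosen with earlier results of these data known. Alternatives were the block, only the groups compared, a low-value filter, a pseudocount, median centring, no trend, a fold minimum, each library left out and the 3 libraries numbered 0 left out. Some genes of the pathway lists are not reported here, and the counts of pathway genes leave them out.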

Additional observations from a re-analysis of the deposited data

How the results depend on the processing

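With the replicate block, members called higher numbered 21 (shRNA1), 24 (shRNA2), 19 (both) and 27 (average), and 15 pathway genes rose. With the lowest 25% of genes removed they numbered 2, 3, 2 and 5, with 4 pathway genes, since that step removed 21 members and left 16. Without the libraries numbered 0 they numbered 22, 26 and 21 for shRNA1, shRNA2 and both, 1 member fell in the average, 2 members were higher and 1 lower between the hairpins, and 18 pathway genes rose and 5 fell. The 1 fallen member with shRNA2 was 0 with 1 added before the log2, with no intensity trend and with a fold minimum, which also left 6 risen and 0 fallen pathway genes. Leaving out 1 library gave 4 to 15 (shRNA1), 5 to 20 (shRNA2), 4 to 14 (both) and 9 to 19 (average) risen members, 0 to 1 fallen with shRNA2, and 3 to 11 risen and 0 to 2 fallen pathway genes. Only the groups compared left 8 called with both. Shares of all genes in these alternatives were counted only for some comparisons, with the block or without the libraries numbered 0. No result was called with its sign reversed. Of 1676 single-gene values, 26 of 7 genes changed sign, all uncalled. Over the fits that left out 1 library, the log2 fold changes with shRNA1 ran from -0.1202 to 0.0022 (Mavs), -0.0609 to 0.0689 (Tmem173), -0.0735 to 0.2684 (Trex1), -0.1058 to 0.1666 (Irf3), -0.0049 to 0.2682 (Ifit2) and -0.1314 to 0.1557 (Shisa5). With shRNA2 they ran from -0.1338 to 0.0658 (Trex1), -0.0750 to 0.1632 (Irf3) and -0.0500 to 0.1813 (Cmpk2), and in the average from -0.0663 to 0.1214 (Trex1) and -0.0274 to 0.1152 (Irf3). Without the libraries numbered 0, the values that changed sign were -0.1004 (Tmem173), -0.0794 (Irf3) and -0.0466 (Shisa5) with shRNA1, 0.1693 (Trex1), -0.0486 (Irf3) and -0.0419 (Cmpk2) with shRNA2 and -0.0640 (Irf3) in the average; median centring gave -0.0008 for Tmem173 with shRNA1. The cause was not tested. Depth is unknown, which limits what can be said of members with low values.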
